A study of Mus musculus with 8 samples.

Results

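The Rab small GTPases, the largest branch of the Ras superfamily, direct membrane traffic. All 56 genes whose symbol is Rab followed by a number and at most a letter and a digit were taken from the deposited table of 37447 genes, without regard to their values. The cells, microglia (the macrophages resident in brain and nerve tissue), came from dissociated optic nerves of C57BL/6 mice aged 3 months and passed a Percoll gradient before the flow sort. The FF mice carried Nf1 flox/flox alleles (Nf1 encodes a brake on Ras), and the FFC mice carried the same floxed alleles with GFAP-Cre, so that Nf1 is lost in cells in which the promoter of the astrocyte gene GFAP is or was active and not in the sorted cells by design. Each genotype had 4 libraries (numbers 1 and 4 female, 2 and 3 male), and the sources used here do not say whether animals were pooled. The series, on microglia in low-grade glioma, asks how these cells differ where astrocytes lack Nf1. Values are FPKM, the fragments assigned to a gene relative to its length and to the library's mapped total, and comparisons were made on log2(FPKM + 1). This scale understates the change of genes with low values.

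A Rab protein switches between a GDP-bound and a GTP-bound form, is anchored in a membrane by prenyl groups at its C terminus, and in its GTP form recruits effectors such as motors, tethers and lipid kinases. Exchange factors turn a Rab on, GTPase-activating proteins turn it off, and the GDP dissociation inhibitors carry the inactive form through the cytosol. In macrophages and microglia the best known members mark the steps from plasma membrane to phagosome and lysosome: Rab5 proteins on early endosomes, Rab4, Rab11 and Rab14 proteins on recycling membranes, and Rab7 on late endosomes and lysosomes. Rab34 sits on Golgi and lysosome-linked membranes, binds the Rab7 effector Rilp, and is needed for an early step of primary cilium formation in other cells.

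The libraries resembled each other only in part. The median Spearman correlation of a library with the other 7 ranged from 0.398 (FF 2) to 0.597 (FFC 3) over the 17753 genes tested. Chemosensory receptor genes, which microglia are not known to use, held 4.25% of the FPKM in FF 2 and 3.54% in FF 4, against 0.708% to 1.63% in the other 6 libraries, and protein-coding genes held 90.4% of the FPKM of FFC 4 (58.5% to 72.6% elsewhere). Microglia markers were present throughout: the summed FPKM of Csf1r, P2ry12, Tmem119, Cx3cr1, Aif1, Fcrls, Siglech, Trem2 and Itgam was 1145 to 3333 in FF and 2362 to 4240 in FFC, and each of these 9 was above 0 in every library. No read counts accompany the FPKM values, so the depth behind them is unknown. Since a 0 may be a failed estimate, such values are given as listed at 0.

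The stretch upstream of 3 Rab genes is shown to give the sequence context of the gene that stood apart between the genotypes, Rab34, and of Rab14 and Rab7, which had the highest levels. Each is the 250 bases before the most upstream RefSeq transcription start, 5′ to 3′ on the gene's strand, in build GRCm38.p6, which is not the build of the expression table. Capitals mark matches, on either strand, to TGAGTCA (the AP-1 site) or GGGCGG (the GC box). The AP-1 motif was picked after the Rab34 sequence had been seen.
Rab34, chr11:78188177-78188426, plus strand: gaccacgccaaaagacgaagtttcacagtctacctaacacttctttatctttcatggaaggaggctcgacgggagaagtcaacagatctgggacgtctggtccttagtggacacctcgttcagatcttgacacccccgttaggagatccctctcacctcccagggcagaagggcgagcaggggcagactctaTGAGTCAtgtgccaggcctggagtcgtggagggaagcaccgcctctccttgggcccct
Rab14, chr2:35201121-35201370, minus strand: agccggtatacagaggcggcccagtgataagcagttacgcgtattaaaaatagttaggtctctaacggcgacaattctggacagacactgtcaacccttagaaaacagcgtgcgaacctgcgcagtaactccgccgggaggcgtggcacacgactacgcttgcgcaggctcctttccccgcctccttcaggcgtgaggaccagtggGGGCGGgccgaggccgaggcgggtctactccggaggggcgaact
Rab7, chr6:88045271-88045520, minus strand: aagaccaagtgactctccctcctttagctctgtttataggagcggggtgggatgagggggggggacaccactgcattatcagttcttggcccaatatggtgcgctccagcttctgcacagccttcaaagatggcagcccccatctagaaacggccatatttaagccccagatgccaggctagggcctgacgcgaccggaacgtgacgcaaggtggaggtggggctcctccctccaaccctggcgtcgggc

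RefSeq promoter windows were matched for 47 of the 56 genes, and the 250 bases before each start were searched on both strands. The Rab34 stretch had 1 AP-1 match and no GC box, Rab14 had 1 GC box, and the stretch shown for Rab7 had neither. Rab34 and Rab7 each have a second window, not shown, at a start further downstream, and both of those windows hold a GC box. The AP-1 letters stood in 2 of the 59 windows of Rab genes (3.39%, in Rab34 and Rab15) and in 4.46% of the windows of all genes. GC boxes stood in 66.1% of Rab windows and 32.7% of all windows. Of the other motifs searched, the lysosomal motif core TCACGTGA was found for Rab5a and Rab21 (3.39% of Rab windows, 0.785% of all) and the PU.1 letters GAGGAAGT for Rab2b and Rab32 (3.39% and 2.44%). The ratio of observed to expected CpG dinucleotides, taken as the highest over a gene's windows, reached 0.6 in 35 of the 47 Rab genes (74.5%) and in 36.5% of the 27022 genes in the promoter table. It was 0.503 in the Rab34 stretch shown, 1.03 in that of Rab14 and 0.457 in that of Rab7, and it was 0.731 in the second window of Rab34 and 0.919 in that of Rab7. These matches describe the letters of the windows and show no binding.

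A few Rab genes held a large share of the family's FPKM. Rab14, a GTPase of recycling endosomes and phagosomes, had a mean of 201 ± 91.0 FPKM (SD over the 8 libraries), followed by Rab7 at 147 ± 49.6 and the recycling GTPase Rab11a at 126 ± 86.6. Rab14 was the highest member in 6 libraries and Rab7 in the other 2. Rab7 and Rab14 were both among the 3 highest members in 7 of 8 libraries. The differences between these 3 means lie within their spread. Then came Rab1 (65.5 ± 36.5 FPKM), which acts between endoplasmic reticulum and Golgi, the late endosomal Rab9 (40.7 ± 32.3), Rab5c (39.1 ± 21.1), Rab4b (37.2 ± 29.3), Rab8a (30.6 ± 23.5), Rab43 (26 ± 21.8) and Rab2a (21.1 ± 10.6), each within the spread of its neighbours in this order. The 3 highest members together held 38.1% to 64.5% of the summed Rab FPKM of a library.

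The number of Rab genes above a low level was similar in all libraries. Between 32 and 39 of the 56 were above 1 FPKM in a library, 17 were so in every library, 36 in some libraries and 3 in none (Rab30, Rab39b and Rab40b). Of the 17, 6 (Rab14, Rab7, Rab11a, Rab1, Rab4b and Rab2a) stayed above 10 FPKM in all 8. The mean over the 8 libraries reached 1 FPKM for 45 genes, which were tested, and not for Rab3b, Rab3c, Rab3d, Rab15, Rab25, Rab27b, Rab30, Rab38, Rab39b, Rab40b and Rab44. The lowest mean among the tested was 1.26 FPKM (Rab17, named for its place at this edge) and the highest among the untested was 0.853 FPKM (Rab3c). None of the 56 was listed at 0 in all libraries, and 12 were at 0 in at least 1.

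**Figure D1:**
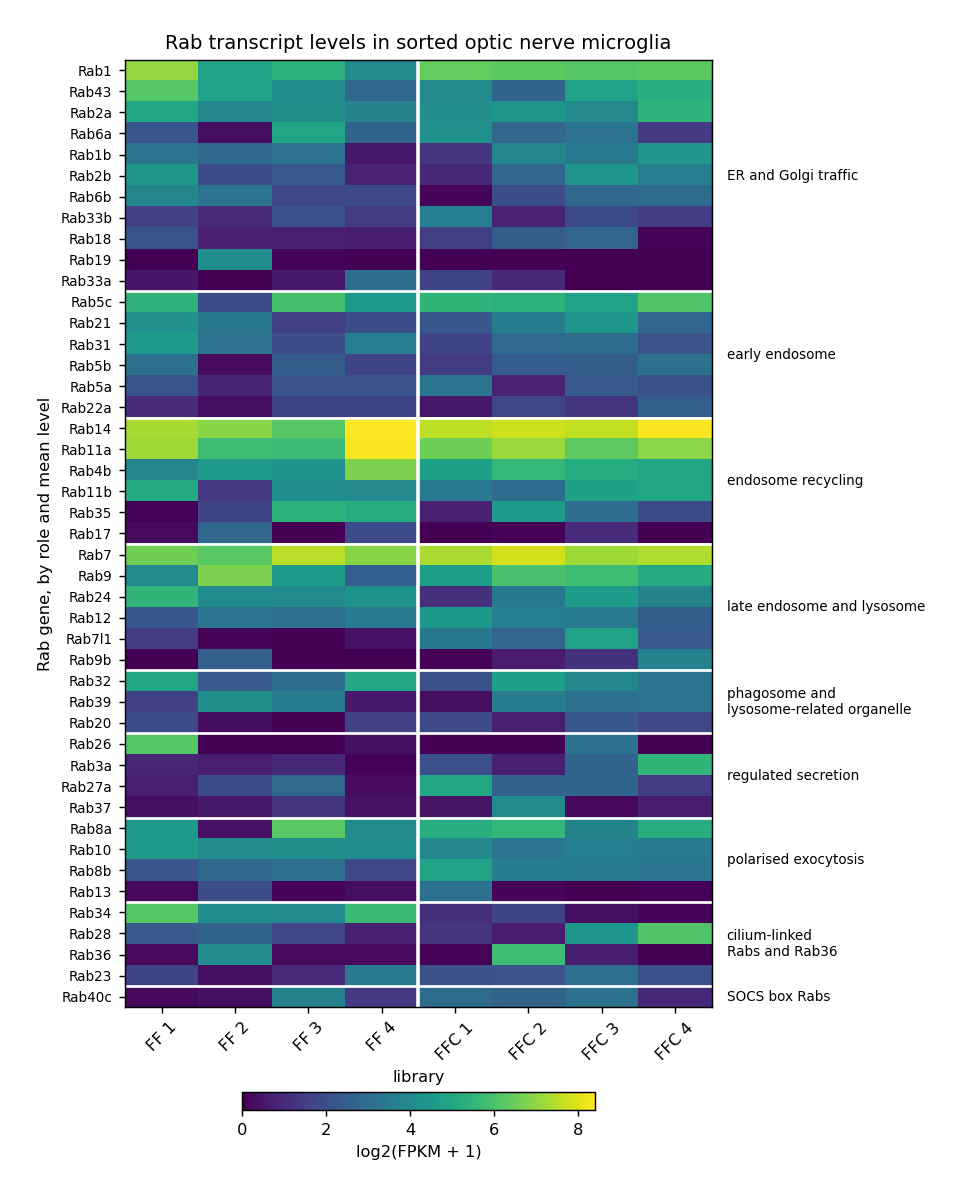
Level of each of the 45 tested Rab genes (rows, grouped by role and ordered by mean FPKM within a role) in each library (columns, FF left and FFC right of the white line), as log2(FPKM + 1) by colour. Rab14, Rab7 and Rab11a are bright in all 8 columns, Rab34 is brighter in the 4 FF columns than in the 4 FFC columns, and several genes are bright in a single library.

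Steady and unsteady members could be told apart. Rab10, which serves exocytosis and membrane recycling, had the lowest SD of log2(FPKM + 1) among the tested members, with values between 8.87 and 22.6 FPKM, and Rab7 varied between 74.5 and 226 FPKM. At the other end, the highest library was at least 100 times the lowest for 13 of the 40 tested members that were above 0 everywhere. The recycling GTPase Rab35, for example, measured 0.0547, 2.31, 41.9 and 36.0 FPKM over FF 1 to 4 and 0.723, 23.4, 7.12 and 2.76 over FFC 1 to 4. High and low values of Rab35 occurred in both genotypes. Over the tested members the median SD of log2(FPKM + 1) across the 8 libraries was 1.16, against 1.26 for all tested genes. FF 2 held the lowest value of several abundant members, among them Rab8a (0.341 FPKM, against 12.7 to 75.2 elsewhere) and Rab5c (2.84, against 23.0 to 68.6 elsewhere).

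Several sets of close paralogs had the same main form in every library. Rab5c, which like its paralogs governs early endosome fusion, gave 74% to 89.2% of the summed Rab5 FPKM, with Rab5a at 1.60% to 22.0% and Rab5b at 3.25% to 14.1%. Rab1 gave 79.4% to 98.4% of the sum with Rab1b, Rab11a 74.4% to 95.2% of the sum with Rab11b and the epithelial Rab25, Rab32 79.8% to 99.4% of the sum with Rab38, and Rab27a 77.2% to 100.0% of the sum with Rab27b. In other sets the main form changed between libraries, among them Rab2a with Rab2b, the Rab3 genes, Rab22a with Rab31 and Rab33a with Rab33b. Rab8a, which with Rab8b carries exocytic vesicles and feeds the cilium, gave 56.4% to 90.9% of its pair in 7 libraries and 5.20% in FF 2. The Golgi GTPase Rab6a gave between 2.71% (FF 2) and 99.5% (FFC 1) of its pair with Rab6b. Paralogs share stretches of near-identical sequence, so how reads were divided between them is uncertain.

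**Figure D2:**
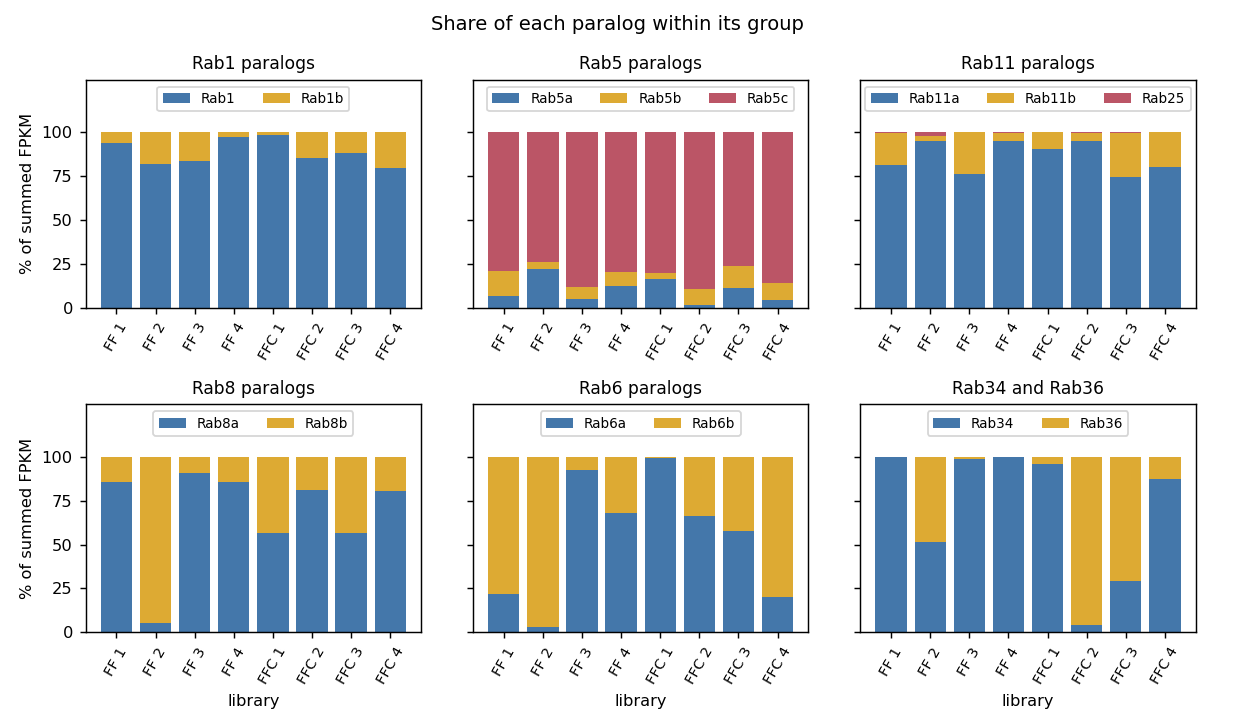
Percent of the summed FPKM of a paralog group (vertical axis) held by each member, by library (horizontal axis), for 6 groups. Rab1, Rab5c and Rab11a hold most of their groups in all 8 libraries, while Rab8a is at 5.20% in FF 2, Rab6a ranges from 2.71% to 99.5%, and Rab36 exceeds Rab34 in FFC 2 and FFC 3.

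Between the genotypes, no Rab gene passed the test. Limma called 0 of 45 members after adjustment (threshold 0.05), as it called 0.0% of all 17753 genes (smallest adjusted p = 0.382). Unadjusted, 2 members were under 0.05, which is 4.44% of the family against 6.46% of all genes. In opposite directions, these were Rab34, lower in FFC (1.94% of all genes), and Rab7l1, higher in FFC (4.52% of all genes). Of the 45 members 32 had a higher and 13 a lower mean log2 value in FFC (71.1% higher, against 56.7% of all tested genes). The median difference (FFC minus FF) was 0.45, against 0.19 for all tested genes. Without FF 2 and FF 4 the members' median was 0.12 and that of all genes 0.07, with 25 members higher and 20 lower, and without FF 2 alone the members' median was 0.23. In 35 of the 45 members the difference was under 1 either way, and the median standard error was 0.85.

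**Figure D3:**
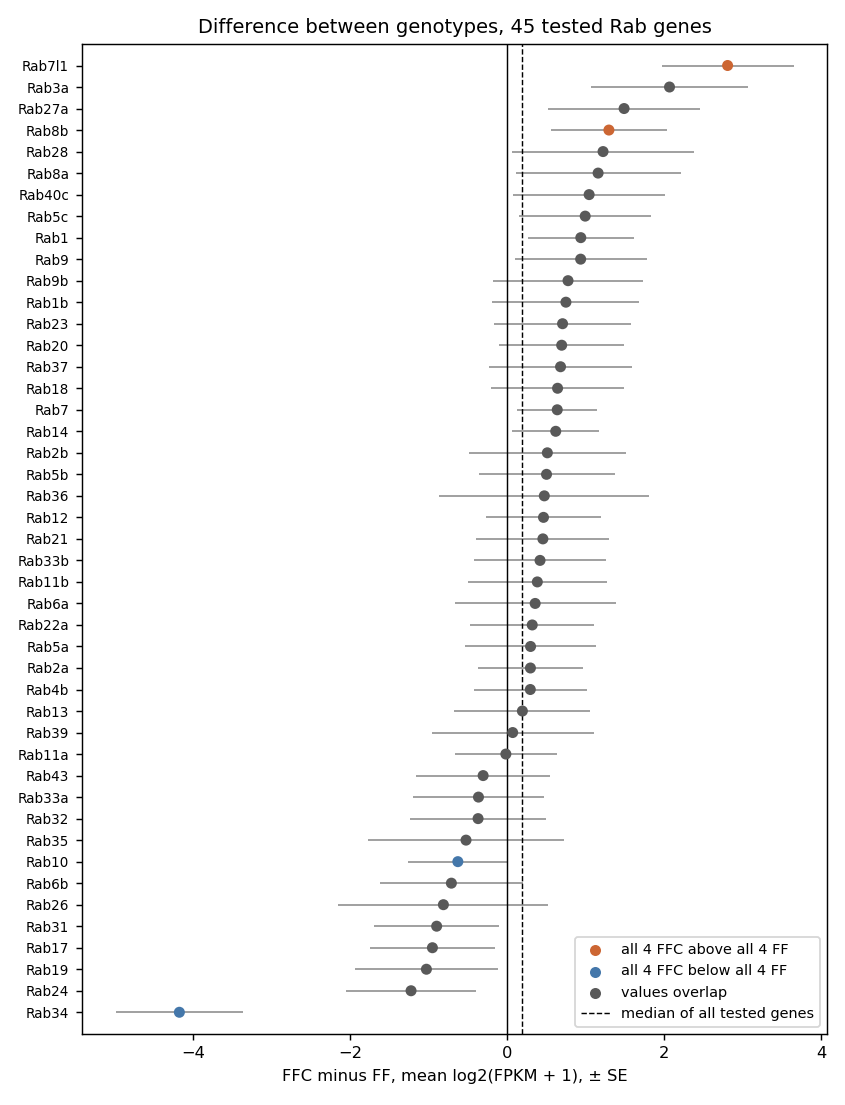
Difference of mean log2(FPKM + 1), FFC minus FF, for the 45 tested Rab genes (points) with its standard error (bars). Coloured points are genes whose 4 FFC values lie all above or all below the 4 FF values, grey points overlap, and the dashed line is the median of all tested genes, 0.19. Rab34 lies at -4.18, apart from the next lowest member at -1.23, and Rab7l1 is the highest at 2.81.

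Rab34 stood apart from the rest of the family. It lies on the plus strand of chromosome 11 (ENSMUSG00000002059, 78001932 to 78005695 in mm9). Rab34 measured 71.0, 16.5, 15.4 and 50.0 FPKM over FF 1 to 4, and 1.23, 2.22, 0.242 and 0.103 over FFC 1 to 4. All FF values were higher than all FFC values. The females had the highest FF values (FF 1 and FF 4) and also the lowest FFC value (FFC 4). The difference on the log2 scale was -4.18 ± 0.81 (SE; limma unadjusted p = 0.000172, adjusted p = 0.382 over all genes), the 8th smallest unadjusted p of the 17753 genes. The next lowest difference in the family was that of Rab24, an autophagy-linked GTPase, at -1.23 ± 0.83. Rab34 was the gene singled out from an earlier look at the same data, so its rank describes these libraries and adds no evidence. Over the 19 alternative fits its difference ranged from -5.51 to -2.64 and its adjusted p from 0.294 to 0.864. Within the libraries whose titles carry November the 3 FF values (15.4 to 71.0 FPKM) lay above that of FFC 1 (1.23), and within those that carry December FF 4 (50.0) lay above the 3 FFC values (0.103 to 2.22).

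As a share of the family's summed FPKM, Rab34 held 3.74% ± 1.91 in FF (SD, n = 4) and 0.0911% ± 0.0889 in FFC. By level it ranked 7th, 9th, 15th and 5th of the 56 members in FF 1 to FF 4 and 34th, 35th, 42nd and 40th in FFC 1 to FFC 4. The family's summed FPKM was 943 ± 272 in FF and 1057 ± 158 in FFC, so these ranges overlapped (634 to 1202 and 892 to 1228). Rab36, the closest relative of Rab34, did not follow it. Rab36 had 0.163, 15.5, 0.161 and 0.152 FPKM over the FF libraries and 0.0537, 54.8, 0.586 and 0.0148 over the FFC libraries, and was high in 1 library of each genotype, FF 2 and FFC 2. Its difference was 0.47 ± 1.34 (SE; limma adjusted p = 0.934), and -0.92 without FFC 2.

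**Figure D4:**
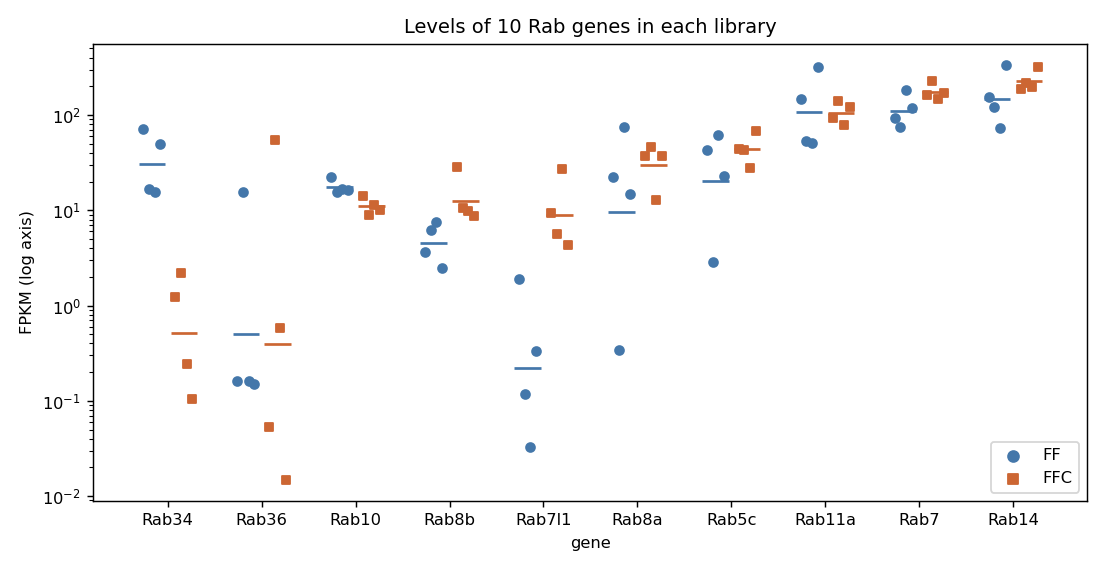
FPKM (logarithmic vertical axis) of 10 Rab genes in each FF library (circles) and FFC library (squares), with a bar at the geometric mean of each group. For Rab34 the 4 FFC points (0.103 to 2.22) lie below the 4 FF points (15.4 to 71.0). Rab10 is also lower throughout, Rab8b and Rab7l1 are higher throughout, and the other 6 genes overlap.

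Most markers of cell types other than microglia had lower means in FFC, as Rab34 had. Summed endothelial markers (Pecam1, Cldn5, Cdh5, Tek, Flt1, Kdr, Slco1a4 and Esam) were at 23.1 to 46.7 FPKM over the FF libraries and 5.59 to 19.7 over the FFC libraries, without overlap. Of the 9 marker lists only this one had a sum without overlap, and among its members only Esam was without overlap. The highest member was Pecam1 in FF 1 (23.2 FPKM), Kdr in FF 2 (15.0) and Flt1 in FF 4 (28.7). In all, 6 of the 7 tested endothelial markers were lower in FFC, with a median difference of -1.16. Summed mural cell and fibroblast markers were at 15.3 to 101 FPKM over the FF libraries and 9.29 to 22.7 over the FFC libraries (6 of 7 tested lower, median -0.92). Astrocyte markers were at 118 to 336 and 91.8 to 187 FPKM (6 of 8 lower, median -0.69), and T cell markers at 33.3 to 468 and 5.28 to 47.6 (6 of 7 lower, median -0.65). In these 4 lists 0 members passed the test, and 0 were listed at 0 in all libraries. Gfap, Aqp4, Aldh1l1, S100b, Gjb6, Aldoc, Sox9 and Fgfr3 of the astrocyte list, Pdgfrb, Des, Dcn and Vtn of the mural and fibroblast list, Cldn5 and Esam of the endothelial list and Cd3d, Cd3g, Cd2 and Trac of the T cell list were at 0 in at least 1 library. Of the 29 tested markers of these lists 3 were lower in FFC without overlap (1.29% of all tested genes were) and 0 were higher (3.05%). The 3 were Clu, Esam and Lck. The lists were chosen with earlier results of these data known, so this count adds no evidence. Clu, a secreted chaperone abundant in astrocytes, measured 127, 36.3, 23.4 and 61.9 FPKM over FF 1 to 4 and 0.887, 1.84, 3.45 and 0.0124 over FFC 1 to 4 (-4.55 ± 0.80, SE; limma adjusted p = 0.382). The 2 tested astrocyte markers with a higher mean in FFC were Slc1a3 (0.37 ± 0.60) and Aldh1l1 (0.18 ± 0.88). Slc1a3 had the highest mean FPKM of the astrocyte list, followed by Clu. Slc1a3 spanned 49.7 to 192 FPKM over the FF libraries and 85.8 to 182 over the FFC libraries. In FF 1 Slc1a3 and Clu held 192 and 127 of the summed 336 FPKM, and in FFC 4 Slc1a3 held 182 of 187. Gfap, S100b, Aqp4 and Aldoc were untested and reached at most 1.03, 0.400, 2.01 and 2.45 FPKM. Esam was listed at 0 in 3 FFC libraries, and Lck, a T cell kinase, spanned 14.6 to 79.7 and 0.386 to 5.96 FPKM. Most of the T cell sum came from Trac (327 FPKM) and Lck in FF 1, from Trac (181) in FF 3 and from Lck (29.4) in FF 4. Pdgfra, an untested member of the mural and fibroblast list, was lower without overlap, at 0.202 to 5.92 and 0.0248 to 0.0807 FPKM. The share of untested genes without overlap was not computed, and which cells gave the Pdgfra values was not tested. Among the FF libraries the mural and fibroblast sum and Rab34 were both highest in FF 1 (101 and 71.0 FPKM), whereas FF 4 held the lowest sum (15.3) and the next highest Rab34 (50.0). Over FF 1 to 4 the endothelial sum was 34.3, 46.2, 23.1 and 46.7 FPKM. The astrocyte sum was 336, 192, 221 and 118, and the T cell sum 468, 33.3, 211 and 34.1. Of the 3 tested markers without overlap, Clu and Lck (79.7, 15.9, 14.6 and 29.4 FPKM) had the FF order of Rab34 and Esam did not. In bulk RNA, fewer cells of a type and less RNA per cell cannot be told apart, and the part of these cells in the Rab34 values was not tested.

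Other myeloid lists also had mostly lower means, and their sums overlapped. Neutrophil markers summed to 193 to 2456 FPKM over the FF libraries and 3.17 to 956 over the FFC libraries (4 of 6 tested lower, median -1.63). Markers of monocytes and border macrophages summed to 236 to 886 and 94.5 to 653 FPKM (5 of 6 lower, median -0.59). Oligodendrocyte markers went the other way, at 13 to 41.9 and 10.4 to 50.5 FPKM (4 of 4 tested higher, median 0.49), and neuron markers were low throughout, at 0.0319 to 5.20 and 0.510 to 0.771 FPKM with 0 tested. S100a8, Ly6g, Mpo, Elane and Camp (neutrophil), Ly6c2 (monocyte), Mog, Mobp and Cldn11 (oligodendrocyte) and Snap25, Rbfox3 and Stmn2 (neuron) were at 0 in at least 1 library. Ly6g, a neutrophil surface marker, went against its list: it was listed at 0 in all 4 FF libraries and in FFC 1, and measured 16.8, 132 and 60.8 FPKM in FFC 2 to 4 (limma unadjusted p = 0.00472, adjusted p = 0.651). Microglia markers had a higher mean in 7 of 9 cases, with a median of 0.57.

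**Figure D5:**
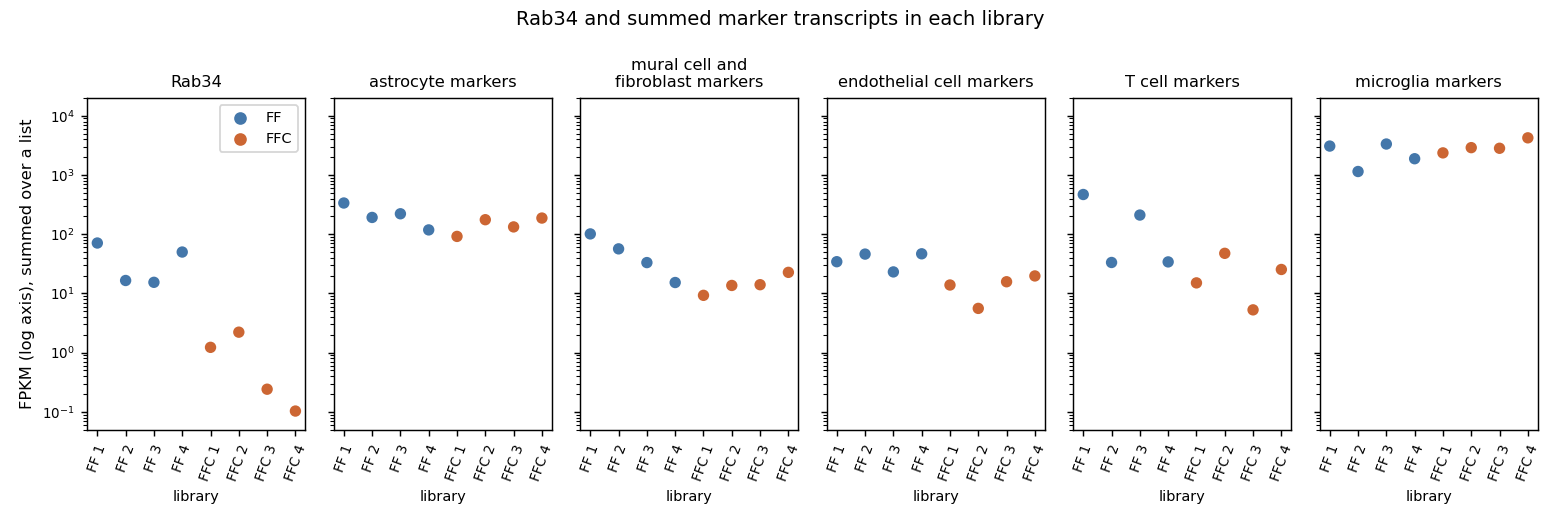
FPKM of Rab34 and summed FPKM of 5 marker lists (logarithmic vertical axis, shared by all panels) in each library. Rab34 and the endothelial sum (23.1 to 46.7 in FF, 5.59 to 19.7 in FFC) separate the genotypes, while the astrocyte, mural and fibroblast, T cell and microglia sums overlap.

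The genes around Rab34 had unlike differences. Its span overlapped no other gene of the table. Within 20 kb on chromosome 11, the ribosomal protein gene Rpl23a had 528 to 4057 FPKM over the FF libraries and 1105 to 4041 over the FFC libraries (difference 0.35 ± 0.63, SE), and the transcription elongation gene Supt6h had 5.64 to 36.7 and 11.7 to 30.1 (0.41 ± 0.72). Tlcd1, 6521 bases before Rab34, had 15.3, 4.09, 25.4 and 9.27 FPKM over the FF libraries and 1.54, 0.772, 11.1 and 0.302 over the FFC libraries (-2.08 ± 0.92; limma unadjusted p = 0.0405, adjusted p = 0.755). The Tlcd1 values overlapped. Nek8, a ciliary kinase, had 0.104 to 5.92 FPKM over the FF libraries and 0.353 to 2.40 over the FFC libraries, and Proca1, the nearest gene downstream, was listed at 0 in 3 FF libraries.

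A further 3 tested members did not overlap between the genotypes, Rab7l1 and Rab8b higher and Rab10 lower in FFC. With Rab34 that makes 2 of 45 members higher without overlap (4.44%, against 3.05% of all tested genes) and 2 lower (4.44%, against 1.29%). Rab34 had been singled out from an earlier look at the same data, so the count of lower members adds no evidence about the family. Rab7l1, also named Rab29, acts at lysosomes and the Golgi and recruits the kinase Lrrk2. Rab7l1 (ENSMUSG00000026433, chromosome 1, 133763801 to 133769464) had 1.89, 0.119, 0.0330 and 0.331 FPKM over the FF libraries and 9.42, 5.68, 27.4 and 4.37 over the FFC libraries. All 4 FFC values exceeded the highest FF value (2.81 ± 0.84, SE; limma unadjusted p = 0.00518, adjusted p = 0.651). Rab8b (ENSMUSG00000036943, chromosome 9, 66691479 to 66767512) had 3.62, 6.21, 7.55 and 2.47 FPKM over the FF libraries and 28.6, 10.5, 9.73 and 8.75 over the FFC libraries, with FFC 1 well above the other libraries (1.29 ± 0.74; adjusted p = 0.759). Rab10 (ENSMUSG00000020671, chromosome 12, 3247430 to 3309969) had 22.6, 15.6, 16.7 and 16.2 FPKM over the FF libraries and 14.1, 8.87, 11.4 and 10.2 over the FFC libraries. The groups were close together (-0.63 ± 0.63, SE; adjusted p = 0.775). Among the 11 untested members Rab38 and Rab3c, picked here after their values were seen, were lower in FFC without overlap. The share of all untested genes without overlap was not computed, so this count has nothing to be set against. Rab38, which builds melanosomes and other lysosome-related organelles, had 0.513 to 1.83 FPKM over the FF libraries and 0.0513 to 0.159 over the FFC libraries, and the synaptic Rab3c had 0.146 to 5.74 and 0.00206 to 0.0731. Without FF 2 and FF 4, 7 tested members were higher without overlap (Rab4b, Rab7l1, Rab8b, Rab9, Rab9b, Rab14 and Rab23; 7.22% of all tested genes were) and 2 lower (Rab10 and Rab34; 6.40% of all).

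Differences between the role groups were not tested. In the ER and Golgi group 7 of 11 tested members had a higher mean in FFC (median 0.35), with Rab1 at 131, 28, 42.5 and 15.3 FPKM over the FF libraries and 83.5, 76.6, 71.0 and 76.2 over the FFC libraries. The Rab1 levels of FFC lay within the wider range of FF (0.94 ± 0.68, SE; limma adjusted p = 0.759). The Rab1 difference was 1.5 without FF 1, 0.50 without FF 4 and 0.0352 without FF 2 and FF 4. Rab19 had 16.3 FPKM in FF 2 and at most 0.0489 elsewhere. Rab43 had 6.23 to 72.6 FPKM over the FF libraries and 5.50 to 37.3 over the FFC libraries, and Rab2a 12.2 to 31.5 and 14.6 to 42.7.

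Of the 6 early endosome members 5 had a higher mean in FFC (median 0.38). Rab5c had 42.8, 2.84, 61.4 and 23.0 FPKM over the FF libraries and 44.1, 42.5, 27.9 and 68.6 over the FFC libraries (0.99 ± 0.84, SE), and its difference was -0.23 without FF 2 and FF 4. Rab31, a relative of Rab22a that acts between trans-Golgi and endosomes, had 2.93 to 21.7 FPKM over the FF libraries and 2.23 to 6.87 over the FFC libraries (-0.90 ± 0.80). Of the 6 tested recycling members 3 were higher and 3 lower (median 0.14). Rab14 (ENSMUSG00000026878, chromosome 2, 35035725 to 35056640) had 156, 120, 73.4 and 337 FPKM over the FF libraries and 189, 216, 197 and 321 over the FFC libraries. The FFC values lay inside the FF range (0.62 ± 0.55), and the difference was 0.29 without FF 3, 1.01 without FF 4 and 0.13 with month as a term. Rab11a had 51.4 to 320 FPKM over the FF libraries and 79.4 to 140 over the FFC libraries (-0.02 ± 0.65), and Rab4b 13.3 to 105 and 26.4 to 46.8 (0.29 ± 0.72). Rab17, an epithelial recycling GTPase, was listed at 0 in FF 3, FFC 1 and FFC 4 and reached 5.90 FPKM in FF 2.

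Of the 6 late endosome and lysosome members 5 had a higher mean in FFC (median 0.70, the median of all tested genes being 0.19). Rab7 (ENSMUSG00000079477, chromosome 6, 87949100 to 87995264), the switch for fusion with lysosomes, had 94.0, 74.5, 185 and 118 FPKM over the FF libraries and 161, 226, 147 and 170 over the FFC libraries. Only FF 3 reached the FFC range (0.64 ± 0.51, SE; limma adjusted p = 0.759). Rab9, which returns receptors from late endosomes to the Golgi, had 4.67 to 105 FPKM over the FF libraries and 24.8 to 62.6 over the FFC libraries (0.93 ± 0.84). Rab24 was the member of this group with a lower mean, at 44.3, 15.9, 14.7 and 18.5 FPKM over the FF libraries and 1.27, 9.41, 23.2 and 12.6 over the FFC libraries. FFC 3 overlapped the FF values. In the phagosome and lysosome-related organelle group, Rab32 had 4.36 to 31.1 FPKM over the FF libraries and 3.22 to 25.8 over the FFC libraries (-0.37 ± 0.86), and Rab20, a phagosome maturation GTPase, 0.0284 to 2.68 and 0.626 to 3.84 (0.69 ± 0.80).

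In the regulated secretion group 4 of 9 members were tested and 3 of them had a higher mean in FFC. The synaptic vesicle GTPase Rab3a had 0.870, 0.620, 0.975 and 0.0589 FPKM over the FF libraries and 3.12, 0.662, 5.34 and 43.9 over the FFC libraries (2.07 ± 1.00, SE; limma adjusted p = 0.759), so that FFC 2 lay among the FF values. Rab27a, which docks secretory granules and lysosome-related organelles, had 0.176 to 6.45 FPKM over the FF libraries and 1.74 to 31.3 over the FFC libraries (1.49 ± 0.97). In the polarised exocytosis group Rab8a had 22.1, 0.341, 75.2 and 14.8 FPKM over the FF libraries and 37.0, 45.9, 12.7 and 36.9 over the FFC libraries (1.16 ± 1.05). The difference of Rab8a was -0.44 without FF 2 and FF 4. Of the cilium-linked members besides Rab34, Rab28 had 0.681 to 5.38 FPKM over the FF libraries and 1.44, 0.545, 20.5 and 68.7 over the FFC libraries (1.22 ± 1.16), and its difference was 0.22 without FFC 4 and 2.05 without FFC 2. Rab40c, the 1 tested member with a SOCS box and part of a ubiquitin ligase, spanned 0.128 to 11.9 and 0.921 to 8.00 FPKM (1.04 ± 0.97). Single libraries moved several other differences by over 1.5 times. Leaving out each in turn gave 0.28 to 1.68 for Rab9, 0.14 to 1.48 for Rab5c, 0.0315 to 1.97 for Rab8a, 1.15 to 2.73 for Rab3a, 0.80 to 1.98 for Rab27a, 0.63 to 1.81 for Rab40c and 0.38 to 1.01 for Rab20. Among members with a lower mean the ranges were -1.68 to -0.54 for Rab24, -1.35 to -0.51 for Rab31, -1.37 to -0.44 for Rab17 and -1.38 to -0.00887 for Rab19, the last without FF 2.

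Genes that load, switch and read Rab proteins, and genes of cilium assembly, also gave no call. Of 153 genes listed in 5 groups, 35 of them cilium assembly genes, 131 were tested. In FFC 90 were higher and 41 lower (56.7% of all tested genes were higher). Limma called 0, and 4 had an unadjusted p under 0.05 (6.46% of all genes had). By group, 5 of 9 prenylation and escort factors (median 0.29), 20 of 31 exchange factors (0.34), 22 of 29 GTPase-activating proteins (0.56), 18 of 30 effectors (0.20) and 25 of 32 cilium assembly genes (0.68) had a higher mean in FFC. Without overlap, 7 of the 131 were higher (3.05% of all genes were) and 1 was lower (1.29%). The exchange factor Rab3il1 had 16.1, 11.3, 51.5 and 37.5 FPKM over the FF libraries and 53.9, 71.9, 72.5 and 100.5 over the FFC libraries (1.53 ± 0.64, SE; limma adjusted p = 0.729). The GTPase-activating proteins Evi5l, Tbc1d9b, Tbc1d22a and Tbc1d23 had 0.766 ± 0.615, 13.7 ± 5.89, 9.58 ± 5.15 and 7.42 ± 3.64 FPKM in FF (SD, n = 4) and 6.42 ± 4.19, 32.3 ± 10.6, 26.6 ± 10.7 and 17.9 ± 4.84 in FFC. Praf2, a prenylated Rab acceptor relative, spanned 0 to 0.702 FPKM over the FF libraries (FF 4 is listed at 0) and 0.924 to 14.6 over the FFC libraries. The ciliary motor subunit Kif3b had 1.30 ± 0.462 FPKM over the FF libraries and 4.81 ± 2.22 over the FFC libraries. The 1 gene lower without overlap was Rilp, the shared effector of Rab7 and Rab34. Rilp had 0.552, 1.28, 1.18 and 11.6 FPKM over the FF libraries and 0.498, 0.0581, 0.323 and 0 over the FFC libraries, where FFC 4 is listed at 0 (-1.38 ± 0.81; adjusted p = 0.759).

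Sex was balanced within each genotype and was tested with genotype as a term. Limma called 0 of 45 Rab genes between males and females (0.0% of all genes). At an unadjusted p under 0.05 there were 2 members, both higher in males (4.44%, against 3.99% of all genes in either direction, 2.57% higher and 1.43% lower), and 0 members were without overlap (all tested genes: 1.55% higher and 0.884% lower). Rab39, a late endosomal GTPase of phagocytes, had 2.16 and 0.515 FPKM in FF females, 0.251 and 8.42 in FFC females, 17.3 and 10.5 in FF males and 10.5 and 7.96 in FFC males (males minus females 2.15 ± 0.88, SE; limma adjusted p = 0.953). FFC 4 was the 1 female library in the range of the males. Rab9 differed by 1.69 ± 0.74 (adjusted p = 0.953). The genotype difference of 1 member depended on sex at an unadjusted p under 0.05, Rab32 (unadjusted p = 0.0236), with 0 members called (3.19% of all genes at that threshold and 0.0% called). For Rab34 the interaction was 2.19 (unadjusted p = 0.191), at 71.0 and 50.0 FPKM in FF females, 1.23 and 0.103 in FFC females, 16.5 and 15.4 in FF males and 2.22 and 0.242 in FFC males.

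Neighbouring genes limit how some members can be read. The spans of 19 of the 56 members overlap another gene of the table, and the sources used here do not say whether reads were counted by strand. Rab37, at 15.0 FPKM in FFC 2 and 0.141 to 1.40 elsewhere, lies across the myeloid receptor gene Cd300lf on the other strand, which had 0.160 to 235 FPKM. Rab26, at 71.1 FPKM in FF 1 and 7.86 in FFC 3 and at most 0.265 elsewhere, overlaps Traf7 on the same strand (4.52 to 128 FPKM). Rab4b, a member with a high mean, overlaps Mia1 on the same strand (0.0643 to 60.1 FPKM). Rab2b, Rab3a, Rab5a, Rab6a, Rab15 and Rab40c also overlap protein-coding genes, on the other strand. Only gene spans were compared, and whether the exons of such pairs share reads was not tested. Rab34, Rab7l1, Rab8b, Rab14 and Rab36 overlap no other gene of the table, whereas Rab7 and Rab10 each overlap an antisense gene.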

How the data were processed

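Per the labels' protocols, TRIzol RNA of the 8 libraries was DNase treated, converted to cDNA by the Ovation RNA-Seq method and sequenced on Illumina HiSeq instruments. The authors deposited FPKM in 1 table. Cufflinks 2.0.2, TopHat2 2.0.4, Bowtie2 2.0.0, CASAVA 1.8.2 and build mm9 appear in the submitters' processing notes, with no role or order, and no gene annotation is named there. Depth is unknown.

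A missing value in some library left out 447 of the 37447 genes. Positions are those of the deposited table, printed counted from 1, since its starts count from 0 (21680 genes then match the length in GENCODE M21, and 420 otherwise). Genotype was tested on log2(FPKM + 1) of the 17753 genes whose mean reached 1 FPKM by limma 3.58.1 in R 4.3.3 (two-sided, trended empirical Bayes variances, Benjamini-Hochberg adjusted over all tested genes, threshold 0.05). Sex was fitted with genotype as a term and the interaction with both. The labels call the libraries biological replicates, and p-values measure the spread between them. On simulated data for FFC against FF with 17753 genes, changing genes with a mean log2 of at least 3, limma recovered 0.2% of genes changed by a log2 of 1, 1.4% at 2, 45.6% at 4 and 81.0% at 6, with 3.2 false calls a run. Rab34 (mean log2 of 5.00 in FF and 0.824 in FFC) and most tested members lay under that mean of 3 over all libraries. These rates therefore do not cover them. Upstream sequences are RefSeq's, build GRCm38.p6. Python 3.11.15, pandas 2.3.3, numpy 2.4.6 and matplotlib 3.10.9 did the rest.

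Named were Rab34, Rab36, the 10 members with the highest mean, members without overlap between the genotypes, the 2 of each role group with the smallest unadjusted p and, in each pathway list, genes without overlap. Other genes were named after their values were seen. The members and lists were chosen with earlier results of these data known. Alternatives were pseudocounts of 0.1 and 5, no filter or one at a mean of 5 FPKM, scaling by upper quartile or quantiles, replicate number, sex or month as a term, robust variances, leaving out each library and leaving out FF 2 and FF 4. Libraries left out were dropped from the fit with the set of tested genes kept. Of the listed microglia markers 1 is not reported here and was left out of the marker sum.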

Additional observations from a re-analysis of the deposited data

Results flagged for a closer look

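In 17 of 96 groups of 4 libraries 1 library lay apart from the other 3 by Dixon's 95% criterion, computed on the log2 scale for genes. For normally distributed values chance gives about 1 in 20, or 4.8. In several flagged groups the other 3 libraries lay under 1 FPKM, where log2(FPKM + 1) draws values together. The count of 17 therefore cannot be read as an excess over chance. FF 2 was the library apart in 5 of them. There Rab36 had 15.5 FPKM (0.152 to 0.163 in the other FF libraries), Rab19 16.3 (at most 0.0489), Rab9b 4.86 (at most 0.00906), Rab13 2.92 (0.105 to 0.254) and Rab5a 0.845 (3.39 to 3.54). FF 1 stood apart with Rab26 at 71.1 FPKM (at most 0.265 in the others) and Rab18 at 3.67 (0.612 to 0.705), and FF 4 with Rab1b at 0.446 (6.16 to 8.93) and with the share of all FPKM held by Rab genes, 0.327% (0.136% to 0.163%).

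In FFC, Rab36 had 54.8 FPKM in FFC 2 (0.0148 to 0.586 in the others), as did Rab37 with 15.0 (0.141 to 0.583). FFC 1 had Rab13 at 7.78 FPKM (0.0210 to 0.0972), Rab8b at 28.6 (8.75 to 10.5) and Rab39 at 0.251 (7.96 to 10.5). FFC 3 had Rab23 at 7.58 FPKM (3.19 to 3.39), Rab17 at 1.09 (at most 0.0665) and Rab26 at 7.86 (at most 0.0446). Rab36, Rab13 and Rab26 had such a library in both genotypes. Causes were not tested.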

How the results depend on the processing

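The 0 calls among Rab genes (FFC against FF, and males against females) and among the pathway genes stayed at 0 in all alternatives run, with 2 to 6, 0 to 3 and 2 to 10 genes at an unadjusted p under 0.05. Rab34 kept its sign and was not called in any (-4.50 to -3.79 without 1 library). The median of the family was 0.23 to 0.65 without 1 library, 0.12 without FF 2 and FF 4, 0.25 with a pseudocount of 5 and 0.27 with upper-quartile scaling, which moved the median of all genes from 0.19 to 0.02. Relative to all genes it was 0.27 as reported, 0.25 after that scaling and 0.05 without FF 2 and FF 4. This relative median was 0.07 with a filter at a mean of 5 FPKM, 0.07 without FF 2 alone and 0.39 without FFC 1. Of 32 other named genes 23 kept their sign throughout and 0 were called. Without FF 2 and FF 4 the sign turned for Rab11a (0.28), Rab5c (-0.23), Rab8a (-0.44), Rab2a (-0.0939) and Rab17 (0.16), and with month as a term for Rab4b (-0.46) and Rab43 (0.17). Leaving out 1 library gave ranges of -0.92 to 1.43 for Rab36, -0.37 to 0.51 for Rab11a, -0.0409 to 0.92 for Rab4b, -0.86 to 0.26 for Rab43, -0.0234 to 0.57 for Rab2a and -0.85 to 0.0948 for Rab32. The causes were not tested. With the replicate number as a block, 0 Rab genes were called (Rab34: -4.18, adjusted p = 0.670) and the family median was 0.45. Libraries with the same number did not deviate together (correlations from -0.0516 to 0.0344, and 0 of 4 FF libraries correlated best with their own number). Libraries of the same number were also of the same sex, and what else they share is not stated in the sources used here. Low FPKM values carry an unknown depth, which limits all members near or under 1 FPKM.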
